A study of Arabidopsis thaliana with 12 samples.

Results

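The AP2-like genes examined here are the 6 Arabidopsis genes AP2 (AT4G36920), TOE1 (AT2G28550), TOE2 (AT5G60120), TOE3 (AT5G67180), SMZ (AT3G54990) and SNZ (AT2G39250). They were taken by gene identifier from 38640 genes measured by mRNA-Seq. Beside them stands miR172, the single row among 275 listed miRNA families whose name begins with miR172 and does not end in -3p or -5p. The 3 groups were Col-0 leaves (rosette and cauline leaves of the wild-type ecotype), Col-0 flowers (unopened floral buds of the same plants) and dcl234 flowers (unopened buds of plants carrying dcl2-1, dcl3-1 and dcl4-2t). The Col-0 plants were 4 to 6 weeks old, and all plants grew under 16 h of light and 8 h of dark at 20 to 22 °C. Each group had 2 biological replicates, each a pooled tissue collection from separate plants, and each RNA sample gave 1 sRNA-Seq and 1 mRNA-Seq library, 12 in all.

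AP2-like proteins are transcription factors of the AP2 DNA-binding domain family. AP2 is best known as a floral organ identity gene that specifies sepals and petals and restricts the C-class gene AGAMOUS, and TOE1, TOE2, TOE3, SMZ and SNZ are known as repressors of flowering. The miRNA miR172 is cut from its hairpin precursors by DCL1, loaded into ARGONAUTE1 and pairs with a site in the mRNA of these genes, which is known to lower their output both by blocking translation and by mRNA cleavage. Because translation is part of this control, mRNA levels show only a portion of it. DCL2, DCL3 and DCL4 make siRNAs and are not the enzymes that release miR172.

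The mature miR172 sequences were read from the TAIR10.1 genome at the RefSeq annotated positions. They are shown because the authors assigned reads to a mature miRNA when these lay within 2 nt of it. Which of the loci the miR172 row sums was not tested. Capitals mark the seed (bases 2 to 8, counted from the 5′ end).
miR172a-3p (chr2:11942918-11942938, minus strand): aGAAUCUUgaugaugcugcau
miR172c-3p (chr3:3599791-3599811, minus strand): aGAAUCUUgaugaugcugcag
miR172e-3p (chr5:23988566-23988586, plus strand): gGAAUCUUgaugaugcugcau
The sequence of miR172b-3p (chr5:1188211-1188231, minus strand) was identical to miR172a-3p, and that of miR172d-3p (chr3:20587991-20588011, plus strand) to miR172c-3p. Against miR172a-3p, the c and d form differed by U21G and the e form by A1G, so that the seed was the same in all 5 precursors.

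For each of the 6 genes, the best-matching site of 21 nt opposite miR172 is printed here as RNA in the sense of the mRNA. Further sites in the same gene were not counted. Capitals mark the bases that do not form a Watson-Crick pair with miR172a-3p, and the sites show how alike the targets are.
AP2 (chr4:17403019-17403039, plus strand): CugcagcaucaucaGgauucu
TOE1 (chr2:12226233-12226253, minus strand): CAgcagcaucaucaGgauucu
TOE2 (chr5:24210889-24210909, plus strand): augcagcaucaucaGgauucu
TOE3 (chr5:26802175-26802195, minus strand): UGgcagcaucaucaGgauucu
SMZ (chr3:20373774-20373794, minus strand): UugcagcaucaucaGgauucC
SNZ (chr2:16389066-16389086, minus strand): UugUagcaucaucaGgauucC
None of the sites spanned an intron. The stretch opposite miRNA positions 2 to 17 was identical in all 6 genes, and of 31460 genes whose annotated transcripts were searched on the sense strand, those 6 (0.0191%) were the ones that held it. The G opposite the U at miRNA position 7, a G:U wobble pair, was shared by all 6, and the genes differed only near the ends of the site. With wobble pairs counted among them, TOE2 had 1 base outside Watson-Crick pairs with miR172a-3p, AP2 had 2, TOE1, TOE3 and SMZ had 3 each, and SNZ had 4. Of these bases, 2 formed G:U wobbles in SNZ and 1 in each of the other genes. Against miR172c-3p the order changed at its head, with 1 such base for AP2 and 2 each for TOE1 and TOE2.

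The site lay in both annotated transcripts of AP2, in all 6 of TOE1 and all 6 of TOE2, in both of SNZ, in 1 of 4 of TOE3 and in 1 of 2 of SMZ. It was inside the coding sequence in both AP2 transcripts, in 3 TOE1, 3 TOE2, 1 TOE3, 1 SMZ and 1 SNZ transcript, and in a noncoding or untranslated stretch of the remaining ones. The levels that follow are per gene and do not separate transcripts with the site from those without it.

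Depth and purity were checked before the members were compared. The sRNA-Seq libraries held between 4062090 and 13755078 genome-matching reads. For mRNA the depth is not in the values, which are TPM, a length-scaled share of the transcripts of a library. A single non-coding RNA beside the ribosomal RNA genes, AT3G06365, took between 20286 TPM (dcl234 flowers, replicate 2) and 187788 TPM (Col-0 flowers, replicate 1). The median gene ranged from 5.27 TPM (Col-0 leaves, replicate 2) to 11.01 TPM (dcl234 flowers, replicate 2). The summed level of 5 leaf markers was 32016 to 47780 TPM in leaves against 12494 to 14783 TPM in Col-0 flowers, and that of 6 floral bud markers was 6.80 to 13.0 TPM against 288 to 417 TPM, with SEP2 listed at 0 in both leaf libraries. In dcl234 flowers, DCL3 stood at 0.40 and 0.37 TPM against 3.85 and 4.30 TPM in Col-0 flowers (log2 fold change -1.87, limma adjusted p = 0.0140). DCL2 (1.04 and 1.60 against 2.07 and 3.26 TPM) and DCL4 (3.12 and 2.87 against 3.20 and 4.51 TPM) did not pass the test. Among the mRNAs of the mutated genes, only that of DCL3 thus checks the mutant label. The paper also reports reduced tasiRNA families in dcl234 flowers, which were not examined here.

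Leaves and buds differed in which AP2-like mRNAs prevailed. In Col-0 leaves TOE1 and SNZ made up 87.2% and 82.3% of the summed TPM of the 6 genes in replicates 1 and 2. In Col-0 flowers the same genes made up 3.28% and 2.33%, and AP2 together with TOE2 made up 83.8% and 76.7%, against 9.69% and 11.8% in leaves. The summed level of the 6 genes was 39.0 and 25.8 TPM in leaves and 13.7 and 22.4 TPM in Col-0 flowers, so that the groups did not overlap but were close at their edges. In bulk tissue, fewer cells of a type and less RNA per cell cannot be told apart.

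**Figure D1:**
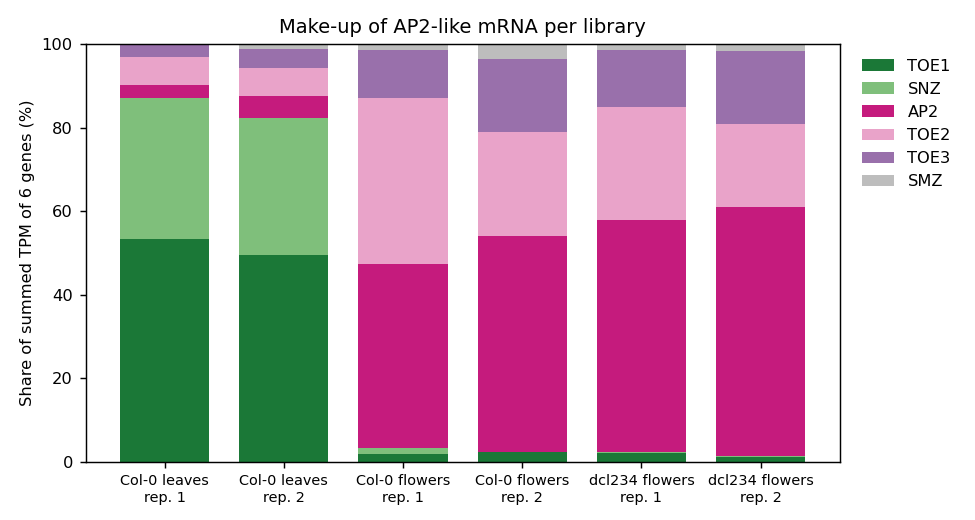
Share of the summed TPM of the 6 AP2-like genes in each mRNA-Seq library (vertical axis, percent; 1 stacked bar per library). TOE1 and SNZ fill 87.2% and 82.3% of the leaf bars, whereas AP2 and TOE2 fill 76.7% to 83.8% of the flower bars of either genotype.

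TOE1, a repressor of flowering that acts on the florigen gene FT in leaves, stood at 20.8 and 12.8 TPM in Col-0 leaves and at 0.27 and 0.52 TPM in Col-0 flowers. Both leaf libraries lay far above both flower libraries. The ratio of means was 42.5-fold, and the limma log2 fold change, which on the log2(TPM + 1) scale understates changes of genes this low in a group, was 3.64 (SE 0.34, adjusted p = 1.68e-06).

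SNZ, a close relative of SMZ with the same known role, had 13.2 and 8.46 TPM in leaves and 0.18 TPM and a listed 0 in Col-0 flowers. Its leaf values again lay above the flower values without overlap. The log2 fold change was 3.41 (SE 0.35, adjusted p = 4.24e-06). TOE1 and SNZ were therefore both leaf genes here. Within leaves their 2-library ranges overlapped, but TOE1 was the higher of the 2 in each leaf library.

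AP2, the organ identity gene, had the opposite pattern. It stood at 1.20 and 1.32 TPM in leaves and at 6.04 and 11.6 TPM in Col-0 flowers, a 6.99-fold higher mean in flowers. The flower replicates differed from each other by more than those of the leaf, but both were above the leaf libraries. The median gene also differed between these flower libraries, at 5.77 TPM in replicate 1 and 8.62 TPM in replicate 2. The log2 fold change of leaves against flowers was -2.06 (SE 0.34, adjusted p = 0.00029). When TPM were scaled to the spiked-in ERCC transcripts instead, it was -1.38 and no longer passed (adjusted p = 0.470).

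TOE2, a flowering repressor that acts redundantly with TOE1, stood at 2.58 and 1.73 TPM in leaves and at 5.46 and 5.58 TPM in Col-0 flowers. It was higher in both flower libraries, in contrast to TOE1. The log2 fold change was -1.06 (SE 0.31, adjusted p = 0.0146). This call was lost in 5 of 14 alternative analyses. Among them were quantile normalization (log2 fold change -0.57, limma adjusted p = 0.113) and ERCC scaling (-0.48, adjusted p = 0.931). The others left out a replicate. The log2 fold change was -0.86 without Col-0 leaves replicate 2, -1.05 without Col-0 flowers replicate 2 and -1.06 without dcl234 flowers replicate 2.

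TOE3, the relative of AP2 that is also active in floral patterning, stood at 1.22 and 1.18 TPM in leaves and at 1.58 and 3.90 TPM in Col-0 flowers. Its flower libraries were both above the leaf libraries, but replicate 1 only narrowly. The log2 fold change was -0.69 (SE 0.36, adjusted p = 0.152). It depended on the spread of the flower replicates, being -1.16 without Col-0 flowers replicate 1 (adjusted p = 0.0346) and -0.23 without replicate 2 (adjusted p = 0.579).

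SMZ, which represses FT in leaves, was the lowest member in leaves, with a listed 0 and 0.33 TPM. The Col-0 flowers had 0.19 and 0.79 TPM of it, and the dcl234 flowers 0.34 and 0.51 TPM. The Col-0 flowers overlapped with both other groups, while the leaf values lay just under those of the dcl234 flowers. It was the 1 member whose mean over the 6 libraries was under the 1 TPM required for testing. With every gene above 0 TPM admitted, its log2 fold change was -0.34 in leaves (adjusted p = 0.368) and -0.04 in dcl234 flowers (adjusted p = 0.939).

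**Figure D2:**
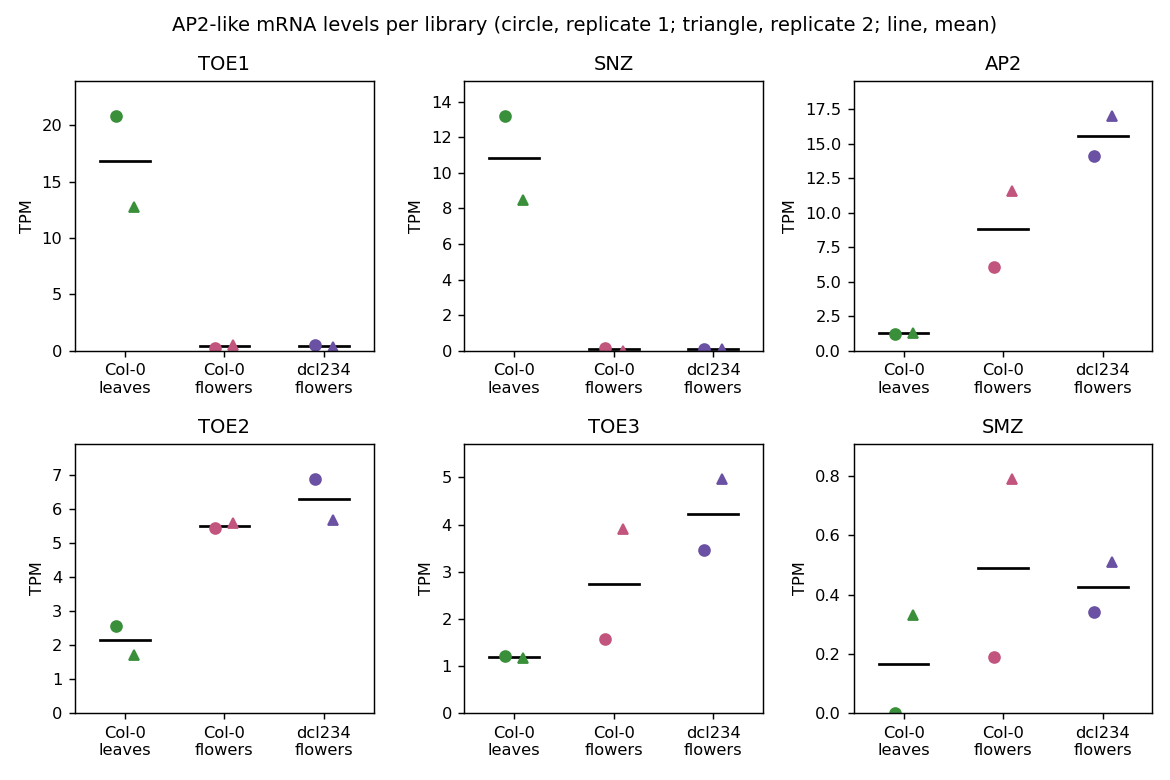
TPM of the 6 AP2-like genes in each library (vertical axes, linear and starting at 0, with a scale of their own per gene; circles, replicate 1; triangles, replicate 2; line, mean of 2). TOE1 and SNZ are high in leaves only (8.46 TPM or more against 0.52 TPM or less in every flower library), while AP2 and TOE2 are lowest in leaves.

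Of the 5 members tested, 2 were called higher and 2 lower in leaves. Among all 19778 genes tested in this comparison, 37.0% were called, 12.0% higher and 24.9% lower. TOE1 and SNZ passed the filter only through their leaf values, so their share among the tested members carries no weight of its own. The median of the log2 fold changes of all genes tested was -0.31 in leaves against Col-0 flowers. Relative to it, TOE1 was at 3.95, SNZ at 3.73, AP2 at -1.75, TOE2 at -0.75 and TOE3 at -0.38. With quantile-normalized TPM, or with the median genes set equal, calls in leaves split into 4824 higher and 4182 lower, or 4916 and 4518, in place of 2378 and 4932.

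The order of the levels, which TPM allow because they are scaled for transcript length, also differed between organs. In leaves it ran TOE1, SNZ, TOE2, AP2, TOE3 and SMZ. The ranges of TOE1 and SNZ overlapped across the leaf libraries. Within each leaf library, however, TOE1 was the higher (20.8 against 13.2 TPM and 12.8 against 8.46 TPM). AP2 and TOE3 also overlapped, and they changed places between the leaf libraries (1.20 against 1.22 TPM and 1.32 against 1.18 TPM). In flowers of both genotypes it ran AP2, TOE2, TOE3, SMZ, TOE1 and SNZ, and only SMZ and TOE1 overlapped.

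The question in the dcl234 flowers was whether the loss of 3 siRNA-producing dicers altered these levels. AP2 stood at 14.1 and 17.0 TPM, above 6.04 and 11.6 TPM in Col-0 flowers. The groups did not overlap, and the ratio of means was 1.77-fold. The log2 fold change was 0.81 (SE 0.34), with an adjusted p of 0.208. Without Col-0 flowers replicate 1 it was 0.39 (adjusted p = 0.693), and without replicate 2 it was 1.23 (adjusted p = 0.0709). Divided by the median gene of its own library, AP2 was 1.47 and 1.54 in dcl234 flowers and 1.05 and 1.34 in Col-0 flowers.

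TOE2 stood at 6.89 and 5.69 TPM in dcl234 flowers, both slightly above the Col-0 flowers (log2 fold change 0.16, SE 0.31, adjusted p = 0.692). TOE3 stood at 3.47 and 4.97 TPM, within reach of the 1.58 and 3.90 TPM of Col-0 flowers (0.54, SE 0.36, adjusted p = 0.311; 0.076 without Col-0 flowers replicate 1 and 1.00 without replicate 2). TOE1, at 0.50 and 0.31 TPM, and SNZ, at 0.07 and 0.11 TPM, overlapped with Col-0 flowers and remained under 1 TPM (log2 fold changes 0.01 and 0.00, adjusted p = 0.979 and 0.993). The leaf genes were thus low in the buds of both genotypes.

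Of the 5 tested members, 0 were called in dcl234 flowers by limma. Among all 19778 genes 1.83% were called, 1.34% higher and 0.48% lower. AP2 was the 1 member with an unadjusted limma p under 0.05. The share of all genes under that limit was not counted, so it does not set AP2 apart. Here the median of the log2 fold changes of all genes tested was itself 0.50 in dcl234 flowers. Relative to it, AP2 was at 0.31, TOE3 at 0.04, TOE2 at -0.34, TOE1 at -0.49 and SNZ at -0.50. The directions of TOE2, TOE1 and SNZ, none of them called, therefore depended on the scaling, being negative with quantile normalization or with median genes set equal. Those scalings also turned the split of called genes, from 266 higher and 95 lower to 108 and 242, or 74 and 162.

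Scaled to the ERCC transcripts, 3 members were called higher in dcl234 flowers, namely AP2 (log2 fold change 2.67), TOE3 (2.09) and TOE2 (1.91). Under that scaling the median log2 fold change of all genes was 2.29 and 17415 genes were called. The values of these 3 members were within 0.38 of that median. The floral bud markers had 596 to 787 TPM summed in dcl234 flowers against 288 to 417 TPM in Col-0 flowers, without overlap, and the leaf markers 22528 to 25193 TPM against 12494 to 14783 TPM. None of either list (0 of 6 and 0 of 5) was called by limma, 4 bud markers and 1 leaf marker having an unadjusted p under 0.05. The share of all genes under that unadjusted limit was not counted. The part of the marker shifts in the AP2 level was not tested.

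**Figure D3:**
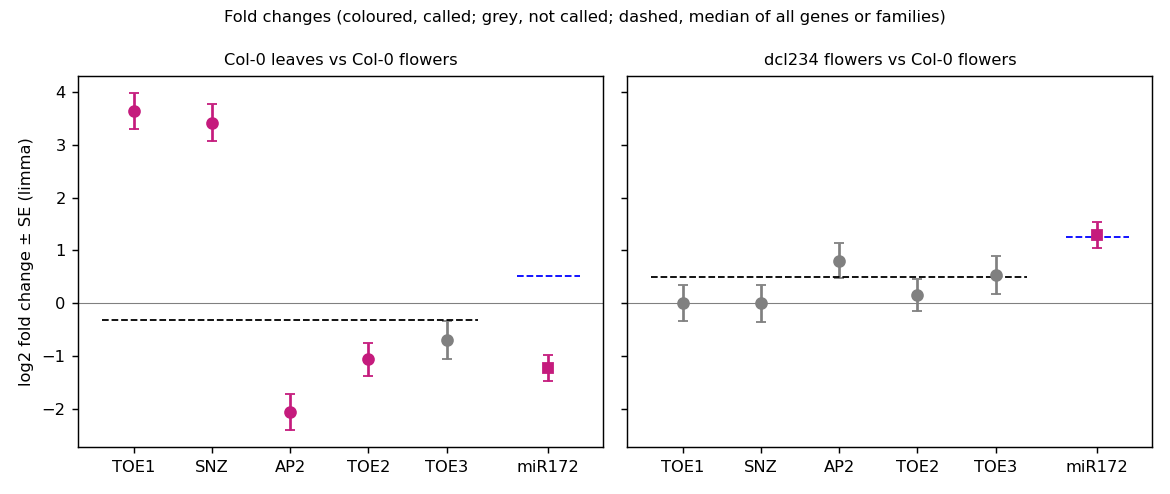
Limma log2 fold changes with standard errors (vertical axis) of the 5 tested AP2-like genes (circles, on log2(TPM + 1)) and of miR172 (squares, on log2(RPM + 1)) in Col-0 leaves (left) and dcl234 flowers (right), both against Col-0 flowers. Dashed lines are the medians of all genes (-0.31 and 0.50) or of all miRNA families (0.52 and 1.26); TOE1 and SNZ lie above 3 in leaves, and miR172 in dcl234 flowers lies on its family median.

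The miRNA itself was lowest where TOE1 and SNZ were highest. Its level is given in RPM, a share of the genome-matching reads of a library. The Col-0 leaves had 18.0 and 14.4 RPM of miR172, the Col-0 flowers had 37.7 and 40.1 RPM, and the dcl234 flowers had 101 and 93.4 RPM. No groups overlapped. The means were 16.2 ± 2.49, 38.9 ± 1.68 and 97.4 ± 5.60 RPM (SD, n = 2). These values rest on 58.7 to 1030 read equivalents per library, reads that match several loci having been divided among them.

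In leaves miR172 was 2.40-fold lower than in Col-0 flowers (log2 fold change -1.22, SE 0.25, limma adjusted p = 0.0024). Over the 93 families tested, 54.8% were called in leaves, but 40.9% were higher and 14.0% lower, and the median family was at 0.52. In RPM, miR172 thus moved against the majority of called families, at -1.74 relative to the median family and 81st from the top of 93. That majority depended on the scale, with 22 families higher and 26 lower as a share of all miRNA reads and 11 higher and 39 lower when scaled to the sRNA spike-ins. Relative to the median family, miR172 was at -1.82 and -1.99 on these scales. Within a library it ranked 61st and 67th among all families in leaves and 34th and 37th in Col-0 flowers. The call held in 12 of 12 alternative analyses.

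In dcl234 flowers miR172 was 2.50-fold higher than in Col-0 flowers (log2 fold change 1.3, SE 0.25, adjusted p = 0.00227). This was close to the shift of the families together. Of the 93 families, 63.4% were called (57.0% higher and 6.45% lower), and the median family was at 1.26, so that miR172 lay 0.04 above the median and 45th from the top. As a share of the reads of all miRNA families, the ratio to Col-0 flowers was 1.26 and the call was lost (log2 fold change 0.32, adjusted p = 0.312). On that scale the families split into 14 higher and 11 lower, with the median family at 0.31.

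The scale changed the size of both differences. As a share of all miRNA family reads, miR172 was 3.86-fold lower in leaves. Scaled to the sRNA spike-ins added to the total RNA, it was 7.21-fold lower in leaves and 3.14-fold higher in dcl234 flowers. The direction was the same on all 3 scales. For the single value per library, the exact permutation test over 2 against 2 samples can reach a two-sided p no smaller than 0.33, which is what both comparisons gave.

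**Figure D4:**
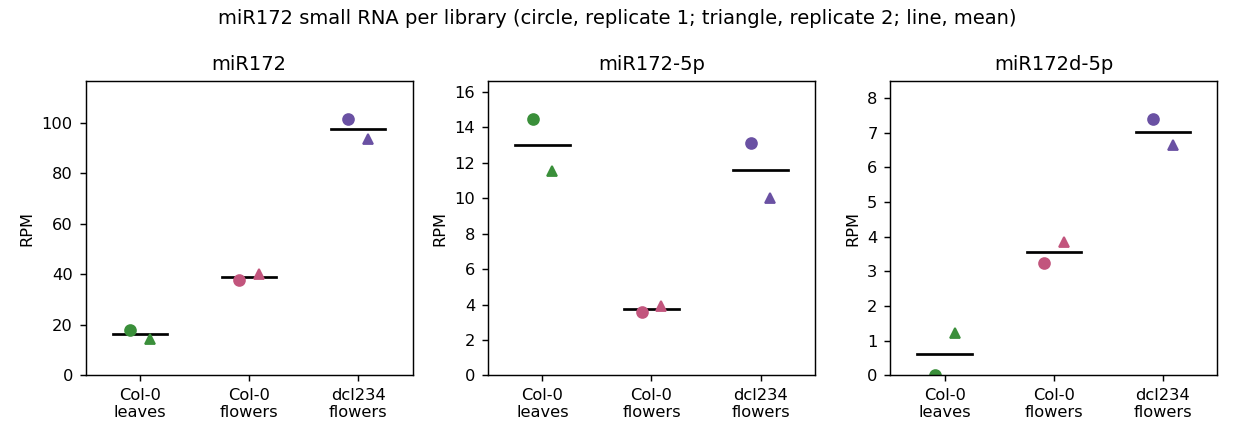
RPM of miR172 and of the opposite-arm rows miR172-5p and miR172d-5p in each sRNA-Seq library (vertical axes, linear and starting at 0, each with its own scale; circles, replicate 1; triangles, replicate 2; line, mean of 2). miR172 is lowest in leaves (18.0 and 14.4 RPM), whereas miR172-5p is lowest in Col-0 flowers (3.59 and 3.93 RPM).

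Set side by side, Col-0 leaves had a low miR172 level (16.2 RPM), a high TOE1 and SNZ level (27.6 TPM together) and a low level of AP2, TOE2 and TOE3 (4.62 TPM together). Col-0 flowers had more miR172 (38.9 RPM), little TOE1 and SNZ (0.485 TPM) and more AP2, TOE2 and TOE3 (17.1 TPM). In dcl234 flowers, with 97.4 RPM of miR172, the first pair stood at 0.495 TPM and the other 3 at 26.1 TPM. The members thus did not share 1 relation to miR172 across the groups, although all 6 held the same 16-nt core. No correlation was computed, since the 6 libraries form 3 separate groups.

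The mRNA of the miR172 precursors was at the edge of detection. MIR172A, MIR172C and MIR172E were listed at 0 TPM in every library. MIR172B was listed at 6.13 TPM in dcl234 flowers replicate 2 only, and MIR172D at 2.73 TPM in dcl234 flowers replicate 1 only. No precursor had a value in both replicates of any group, so the source locus of the mature miR172 could not be read from these libraries. The annotated models are short, from 95 bp (MIR172B) to 133 bp (MIR172C). The part of this length in the low values was not tested.

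Genes that act with or beside the AP2-like genes were compared between the organs in 4 lists, beside shares of 24.9% lower and 12.0% higher in leaves among all genes tested. No list was tested as a set. SPL15, ANT, AIL5 and AIL6, each under 1 TPM in both leaf libraries, passed the filter only through their flower values. Counts of lower genes that include them carry no weight of their own. Of 5 genes known to act on MIR172, 3 were lower in leaves and 1 was higher. SPL9 (2.01 and 1.3 TPM in leaves, 16.0 and 27.1 TPM in Col-0 flowers), a squamosa promoter-binding factor that activates MIR172 in older shoots, was lower by -3.05 on the log2 scale (adjusted p = 9.01e-06), and its relatives SPL10 (-1.98, adjusted p = 0.000156) and SPL15 were lower too. SVP, a MADS-box repressor of flowering known to lower miR172, was the 1 that was higher in leaves, at 55.6 and 42.0 TPM against 2.54 and 5.49 TPM (3.36, adjusted p = 5.31e-06). GI, a clock-linked protein that promotes miR172, stood at 22.4 and 13.3 TPM in leaves and 8.72 and 11.8 TPM in Col-0 flowers and did not pass (0.72, adjusted p = 0.118).

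Of 5 partners of the miRNA or of the proteins, 3 were lower in leaves and 0 higher, against 24.9% and 12.0% of all genes. TPL, the corepressor that AP2 recruits, was lower by -1.24 (adjusted p = 0.00738), as was AGO10 by -1.88 (adjusted p = 0.000565), an ARGONAUTE of the shoot meristem, and also TPR1. HDA19, the histone deacetylase that acts with TPL (22.5 and 20.2 against 27.0 and 40.5 TPM; -0.61, adjusted p = 0.185), and AGO1, the slicer that carries miR172 (17.4 and 10.14 against 20.7 and 37.1 TPM; -1.01, adjusted p = 0.0522), did not pass.

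Of 11 flowering and floral genes known to act downstream, 10 were tested, 5 of which were lower in leaves and 1 higher (24.9% and 12.0% of all genes). AP1, AP3, PI and AG were under 1 TPM in both leaf libraries and passed the filter only through their flower values. The count of lower genes in this list therefore carries no weight of its own. AP1 (-6.20, adjusted p = 2.2e-08), SEP3 (-5.31, adjusted p = 2.1e-07), AP3 (-5.34, adjusted p = 1.23e-07) and PI (-5.62, adjusted p = 6.16e-08), the MADS-box genes of the flower meristem and its organs, were near or at 0 TPM in leaves, the highest value being 3.31 TPM for SEP3. The higher gene was SOC1, a MADS-box integrator of flowering signals. Of 11 relatives from the ANT lineage of the AP2 family, 6 were tested. These relatives were not among the holders of the miR172 core. Of those tested, 4 were lower in leaves and 0 higher, against the same shares of all genes. ANT, AIL5 and AIL6 passed the filter only through their flower values, so this count carries no weight of its own. ANT, a growth regulator of organ primordia, stood at 0.64 and 0.53 TPM in leaves against 11.1 and 19.1 TPM in Col-0 flowers (-3.30, adjusted p = 2.95e-06), and WRI1, an activator of fatty acid synthesis, was lower by -1.15 (adjusted p = 0.0152). WRI3 (-0.48, adjusted p = 0.267) and WRI4 (-1.01, adjusted p = 0.0609) did not pass.

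**Figure D5:**
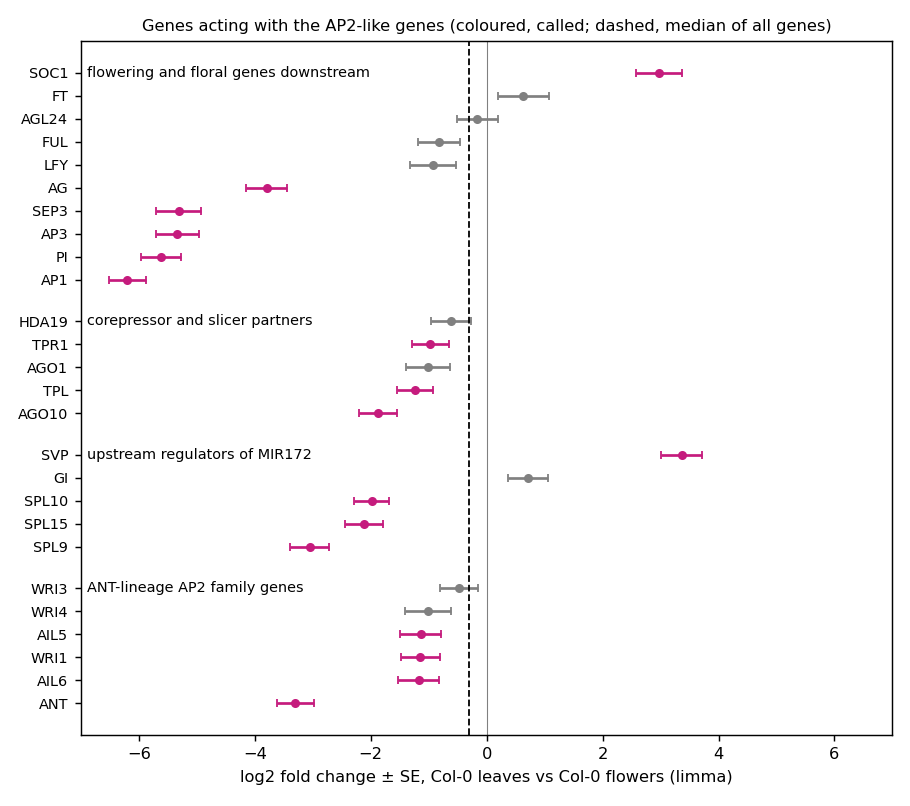
Limma log2 fold changes with standard errors of genes that act with or beside the AP2-like genes, Col-0 leaves against Col-0 flowers (horizontal axis), 1 gene per line in 4 lists. SVP (3.36) and SOC1 (2.97) are the called genes on the leaf side, and the dashed line marks the median of all genes at -0.31.

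In dcl234 flowers, 0 of the 26 tested genes in these 4 lists were called by limma, where 1.83% of all genes were called. With so low a share, the count of 0 does not set the lists apart. An unadjusted limma p under 0.05 was found for 8 of the 26. The share of all genes under that limit was not counted, so the 8 carry no weight of their own. The median log2 fold changes by list were 0.57 for the upstream genes, 0.25 for the partners, 0.74 for the downstream genes and 0.54 for the ANT lineage, beside 0.50 for all genes.

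Some genes followed a member closely over the 6 libraries (Pearson's r of log2(TPM + 1), among 12895 genes averaging 5 TPM or more, the member itself left out). For TOE1 the nearest were AT4G13840 (r = 0.9997), AT4G18205 (r = 0.9993) and AT1G11210 (r = 0.9987), and for SNZ they were WRKY26 (r = 0.9985), AT1G66100 (r = 0.9984) and MSRB6 (r = 0.9984). For AP2 they were ACP2 (r = 0.9998), AT5G43460 (r = 0.9997) and IQD31 (r = 0.9996), for TOE2 AT1G76510 (r = 0.9963), GRL (r = 0.9953) and AT5G66330 (r = 0.9951), and for TOE3 AT4G00170 (r = 0.9993), AT5G04420 (r = 0.9989) and TCP8 (r = 0.9988). With 6 libraries in 3 groups and 12895 genes compared, values this high describe the shape of the profile and carry no test.

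TOE3 and SMZ each overlap a convergent gene on the other strand in the RefSeq annotation, by 119 bp (AT5G67170) and 544 bp (AT3G54980). RSEM was run with its default settings, which do not use strand, so part of the reads of TOE3 and SMZ may belong to these neighbours. AT5G67170 stood at 2.49 to 5.49 TPM and AT3G54980 at 1.18 to 2.92 TPM. AP2, TOE1, TOE2 and SNZ overlap no other annotated gene.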

How the data were processed

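Levels of mRNA and small RNA were compared in 12 libraries of 3 groups, 2 biological replicates each. For mRNA, the authors ran RSEM on read pairs against TAIR10 with the ERCC spike-ins, and deposited TPM per Araport11 gene. For sRNA, the authors aligned trimmed reads to TAIR10 with Bowtie (perfect matches, up to 100 alignments), divided reads among loci, and deposited RPM per family from reads of 20 to 22 nt within 2 nt of a mature miRNA. Both units are shares of a library, so that a level depends on all other RNA in it. The sRNA-Seq depth was recovered from the step of 1 read in the RPM values. Coordinates come from TAIR10.1 (RefSeq).

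The 19778 genes averaging 1 TPM or more, and the 93 families that reached 1 RPM in all 6 libraries, were fitted with limma 3.58.1 in R 4.3.3, on log2(value + 1), with group as the only term, all 6 libraries of an assay and, for genes, a mean-variance trend. Calls of genes needed a p under 0.05 after Benjamini-Hochberg adjustment over all genes tested, and those of families also a difference of at least 2-fold. The model was tested on simulated data. The alternatives were a pseudocount of 0.1, other filters, a fit of just the 4 libraries compared, a replicate block, other scalings (quantile, median gene, ERCC total, miRNA total, sRNA spike-ins by their share of the reads in the study's statistics) and leaving out each replicate. Named were the members, all miR172 rows, the mutated genes, up to 4 genes per list by mean TPM, and the 3 genes most correlated with each tested member. Genes outside this rule (SPL15, TPR1, SOC1, SEP2, AG, AIL5, AIL6) were named after their values were seen. The members and lists were chosen with earlier results of these data known. All 53 listed genes matched the RefSeq table. The siRNA and tasiRNA tables were not used here. Figures and tables were made with Python 3.11.15, pandas 2.3.3 and matplotlib 3.10.9.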

Additional observations from a re-analysis of the deposited data

Results flagged for a closer look

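The opposite-arm rows of miR172, which the comparisons above do not use, held signal in the control samples and in the mutant. The row miR172-5p averaged 13.0 RPM in the leaves, 3.76 RPM in the Col-0 flowers and 11.6 RPM in the dcl234 flowers, with single libraries at 14.5 and 11.6, 3.59 and 3.93, and 13.1 and 10.0 RPM. No leaf or dcl234 library overlapped with the Col-0 flowers. It was higher in leaves (log2 fold change 1.55, SE 0.26, limma adjusted p = 0.00101), where miR172 was lower, and higher in dcl234 flowers (1.39, SE 0.26, adjusted p = 0.00225). Set against the separate miR172 row, its RPM came to 80.4% and 80.1% of the RPM of miR172 in the leaves. The Col-0 flowers had 9.51% and 9.79%, and the dcl234 flowers 13.0% and 10.7%. These shares are of a single row and not of the whole opposite arm. The miR172e-5p row, with the same 14.5 and 11.6 RPM in the leaves, is not counted in them. Whether both rows divide the same reads was not tested. The leaf call of miR172-5p was lost in 2 of 12 alternatives. These were the miRNA total (log2 fold change 0.98, under the 2-fold minimum) and sRNA spike-ins (0.13, limma adjusted p = 0.757). The dcl234 call was lost in 1 of 12, with the miRNA total (0.54, adjusted p = 0.134).

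The row miR172e-5p had means of 13.0, 3.79 and 11.5 RPM in the same order and was equal to miR172-5p in 4 of 6 libraries. The annotated 5p sequences of MIR172b and MIR172e are identical, and are shown because these 2 rows can hold the same reads.
miR172b-5p (chr5:1188278-1188297, minus strand): gCAGCACCauuaagauucac
miR172e-5p (chr5:23988484-23988503, plus strand): gCAGCACCauuaagauucac
miR172d-5p (chr3:20587921-20587941, plus strand): gCAACAUCuucaagauucaga
Capitals mark bases 2 to 8, and only the d form differs there. The row miR172d-5p was not listed in 1 leaf library and stood at 1.23 RPM in the other, with means of 0.615 RPM in Col-0 leaves, 3.55 RPM in Col-0 flowers and 7.01 RPM in dcl234 flowers. It followed the order of miR172 rather than that of the other 5p rows, and it was not tested, because it was under 1 RPM in a library.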

How the results depend on the processing

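TOE1 and SNZ were called higher in leaves in the 13 alternatives that kept them, including that with every gene above 0 TPM, but the filter of 1 TPM in each library removed both, so that it gives no value for them. AP2 was called lower in 13 of 14, and no member was called in dcl234 flowers except with ERCC scaling. In leaves, 7310 genes were called, against 4477 with at least 1 TPM in each library, 1316 with ERCC scaling and 4553 to 7056 when a replicate was left out (4553 without Col-0 flowers replicate 2). Of the members, 4 were called, against 2 with at least 1 TPM in each library (where 3 were tested), 2 with ERCC scaling and 3 to 5 when a replicate was left out. In dcl234 flowers 361 genes were called, against 85 with a pseudocount of 0.1, 87 with every gene above 0 TPM, 1348 with only the 4 libraries of the contrast, 236 with median genes set equal, 17415 with ERCC scaling, and 33 to 1426 when a replicate was left out (1412 and 1426 without a leaf replicate, 33 and 54 without Col-0 flowers replicate 1 and 2, 191 and 116 without dcl234 flowers replicate 1 and 2). The members called there were 0, against 3 with ERCC scaling and 0 when any replicate was left out. Of the miRNA families, 51 were called in leaves, against 90 with a mean of at least 1 RPM (156 tested) and 51 to 61 without a replicate, and 59 in dcl234 flowers, against 25 with scaling to the miRNA total and 47 to 65 without a replicate. The ratio of miR172 in leaves to Col-0 flowers was 0.417, against 0.259 with the miRNA total, 0.139 with sRNA spike-ins, 0.857 with all 4 miR172 rows summed and 0.371 to 0.462 without a replicate. The ratio in dcl234 flowers was 2.50, against 1.26, 3.14 and, without a replicate, 2.40 to 2.60. Signs turned, with no call on either side, for TOE3 in leaves (0.013 with quantile normalization) and in dcl234 flowers for TOE1 (-0.22 with quantile normalization, -0.11 with median genes set equal, and -0.12 to 0.14 without a replicate, negative without Col-0 flowers replicate 1 or dcl234 flowers replicate 1), TOE2 (-0.32 and -0.30 with the same scalings) and SNZ (-0.16 and -0.060, and -0.11 to 0.12 without a replicate, negative without Col-0 flowers replicate 2 or dcl234 flowers replicate 2). The cause was not tested. Replicate numbers are not stated to pair samples, and same-numbered samples did not deviate together (correlations of -0.03 to 0.04 over genes and -0.25 to 0.16 over families). With the replicate block, 958 genes were called in dcl234 flowers and no call of a member or of miR172 changed.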
